A study of Homo sapiens with 8 samples.

Results

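How mRNAs fared after transcription was stopped was compared between RBMS1 knockdown and control cells, gene by gene, for 6269 protein-coding genes. These are the genes represented by a single RefSeq accession, of the mRNA class, over the 2 deposited tables together and with a value in both, out of 12477 genes with any accession in both tables. SW480 is an established human line derived from a colorectal adenocarcinoma, although the series text calls the cells breast cancer cells. All cells carried an shRNA. Control cells expressed a control shRNA and were sampled before (0 h) or 9 h after the addition of alpha-amanitin, and RBMS1 knockdown cells expressed an shRNA against RBMS1 and were sampled at the same times. Each of the 4 groups had 2 libraries of total RNA, 8 in all, and the labels do not say whether these came from separate cultures. The dose of alpha-amanitin was 10 µg/mL. The series text names 2 RBMS1 clones and the sample labels 1, so which cells the knockdown values describe is not settled.

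RBMS1 is an RNA-binding protein that recognises AU-rich words, and the series asks whether its loss changes how long transcripts last. Alpha-amanitin binds the large subunit of RNA polymerase II and stops the making of new mRNA. What is left some hours later then reflects how fast each mRNA is broken down, a process governed by shortening of the poly(A) tail, decapping and nucleases, and by proteins bound to the 3′UTR. Transcription factors and signalling feedback genes usually have short-lived mRNAs, whereas those of ribosomal proteins and metabolic enzymes persist.

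Each table gave 1 value per accession, taken here as the log2 fold change of 9 h over 0 h with the libraries already combined. A negative value is a lower level at 9 h relative to the rest of the same library. Every difference below is the knockdown value minus the control value after subtraction of the median over the 6269 genes (−0.02 before centring). A positive centred difference therefore means that the mRNA was relatively better retained in knockdown cells. Depth, abundance and the spread between libraries are unknown, so no single difference could be set against replicate error, no p-value is given, and sizes of 0.5 and 1 on the log2 scale (1 is 2-fold) serve only to count. Levels before the block are not in the tables, and RBMS1 itself has 2 accessions, so the knockdown could not be checked here. The tables list 10 of 12 colorectal epithelial markers, 4 of 27 markers of other cell types (ACTA2, CD14, CD68 and LYZ) and 0 of 4 breast markers, without giving their levels.

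The profiles of the cell populations were alike for most genes. The median log2 fold change was −0.11 in control and −0.09 in knockdown cells, with quartiles of −0.53 and 0.24 against −0.48 and 0.23. Across genes, which are not independent replicates, Pearson's r was 0.75 and Spearman's rho 0.81. The centred difference was under 0.5 in size for 5489 genes (87.6%), and its quartiles were −0.13 and 0.17. The tail of better retained mRNAs was the fuller one. A centred difference of 0.5 or above was found for 479 genes (7.64%) and of −0.5 or below for 301 (4.80%), and the counts were 125 (1.99%) at 1 or above and 78 (1.24%) at −1 or below. By construction 50.0% of genes were above 0. Without the 132 genes past 2 in size in either table, 46 genes were at −1 or below. The difference was more scattered among labile mRNAs. With genes cut into quintiles by the mean of both tables, its interquartile range was 0.43 in the lowest quintile and 0.23 in the next to highest.

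**Figure D1:**
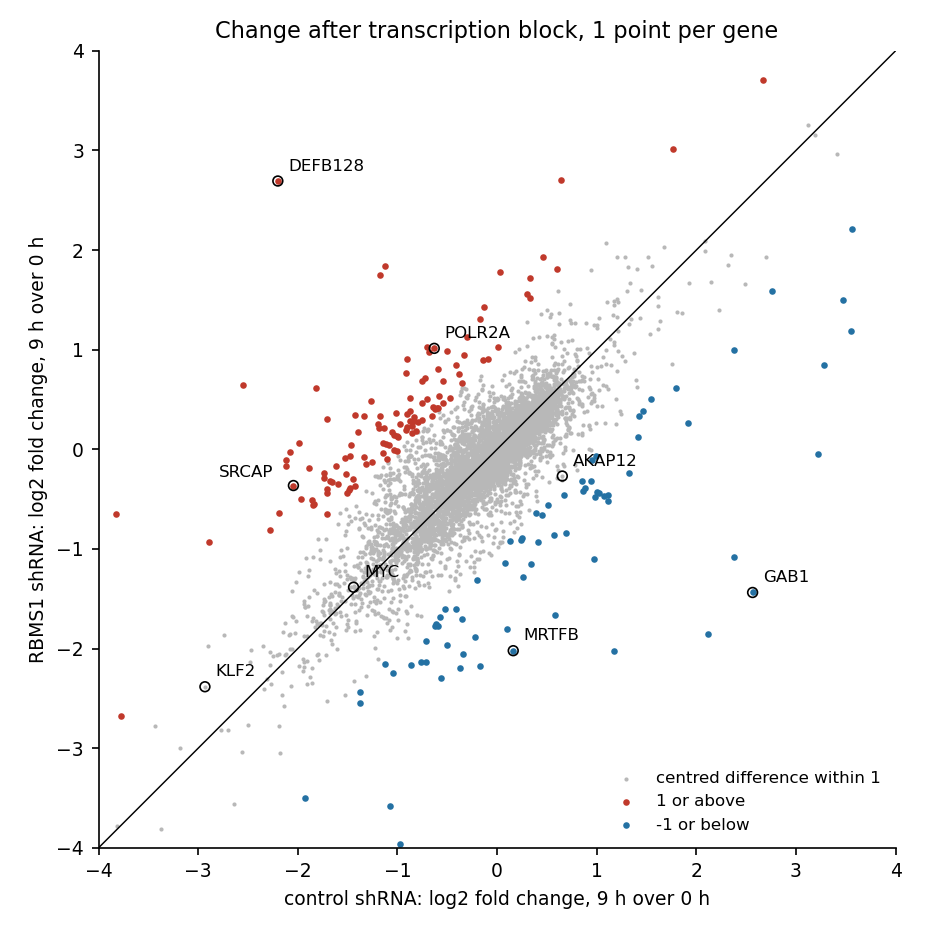
Log2 fold change of 9 h over 0 h in control cells (x axis) and in RBMS1 knockdown cells (y axis), 1 point per gene, for genes within 4 in size in both tables; the line marks equal values, red points have a centred difference of 1 or above and blue points of −1 or below. Most genes lie along the line, and POLR2A at −0.63 and 1.01 and GAB1 at 2.56 and −1.44 lie far from it on opposite sides.

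Genes lost in control cells but not in knockdown cells were few. Of the 600 genes at −1 or below in control cells, 361 were also at −1 or below in knockdown cells, which had 536 such genes. A full switch, from −1 or below in control to 0 or above in knockdown cells, was seen for 26 genes (0.415%), and the opposite switch for 11 (0.175%). Among the former, in the authors' deposited tables, ATN1, the transcriptional corepressor atrophin-1, was at −1.71 in control cells and 0.31 on knockdown. CCNK, the cyclin that partners CDK12 in transcription elongation, was at −1.33 and 0.33 by the authors' deposited tables. The membrane-bound semaphorin SEMA4B was at −1.99 and 0.06 there, the zinc finger gene ZNF610 at −1.82 and 0.61, and DENND1B, an exchange factor for RAB35, at −1.12 and 1.84. The centred differences of these 5 genes ran from 1.68 for CCNK to 2.97 for DENND1B. FAM131B, TMEM169, CCDC120 and the readthrough gene URGCP-MRPS24, whose reads cannot be told apart from those of the genes it joins, had differences of 3.21, 2.94, 1.77 and 1.79. The beta-defensin DEFB128, which is best known from the male reproductive tract, had the highest of this class within 4 in size, at 4.91, from −2.20 and 2.69 by the authors' deposited tables.

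Of the opposite switch, GAB1, a docking protein of receptor tyrosine kinase signalling, was at 2.56 in control cells and −1.44 on knockdown by the authors' deposited tables, giving a centred difference of −3.99. The cytokine TNFSF13 was at 2.12 and −1.85 by the authors' deposited tables, and ATP6V0A4, a subunit of the vacuolar proton pump, at 2.38 and −1.08. MRTFB, a coactivator of serum response factor, was at 0.16 and −2.02 there, and SLC39A6, a zinc importer, at 0.97 and −1.10. BTN3A1, PILRB, ZNF771, SHOX2 and the R-spondin receptor LGR6 were further members of this class, with centred differences of −3.18, −2.22, −1.89, −1.52 and −1.47. AMOTL2, an angiomotin that restrains the Hippo effector YAP, was lower at 9 h in both cell populations, at −0.98 and −3.96 by the authors' deposited tables, with a difference of −2.97. Other large values within 4 in size were 3.19 for FAM161A, 2.08 for FBXL8, 2.07 for LRRC8E, 2.02 for ZNF385A and 1.98 for ZNF555, and −3.25 for WDPCP, −2.49 for CCDC121, −2.41 for DEFB125 and −2.35 for FREY1. The genes nearest to a size of 1 were FBRS at 1.01 and GABRQ at 1.00 inside it, GDPD3 at 0.997 and PGRMC2 at 0.99 outside it, and on the other side EFNA3 at −1.01 and GALNT12 at −1.02 inside, CAVIN1 at −0.99 and PPIL6 at −0.99 outside.

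Enzymes that write histone marks had the largest share of genes at 0.5 or above, 35.3%, among the 82 functional lists with at least 10 measured genes. Of 34 histone methyltransferases, acetyltransferases and associated factors, 26 had a centred difference above 0. At 0.5 or above were 12, against 7.64% of all genes, and at −0.5 or below 0, against 4.80%. The list's median was −0.80 in control and −0.31 in knockdown cells, and its median difference was 0.21. The acetyltransferase EP300, a coactivator at enhancers, was at −1.68 in control cells and −0.32 on knockdown by the authors' deposited tables, a difference of 1.37. KMT2D, which methylates histone H3 lysine 4 at enhancers, was at −1.51 and −0.25 by the authors' deposited tables, and KMT2B, its relative at promoters, at −1.04 and 0.15. KAT6B, another acetyltransferase, was at −1.85 and −0.56 there. Other members, named after their values were seen, were CREBBP, the paralog of EP300, at 0.91, KMT2C at 0.94, KMT2A at 0.83, SETD1A at 0.78 and SUZ12, a non-catalytic core subunit of Polycomb repressive complex 2, at 0.85. Relatives of these lay close to 0, with the Polycomb methyltransferase EZH1 at −0.02, the acetyltransferase KAT2B at 0.01 and the histone H4 methyltransferase KMT5C at 0.05. The lowest of the list were PRDM1 at −0.47, PRMT6 at −0.33, KMT5A at −0.21 and PRDM11 at −0.08. At −1 or below were 12 of the 34 in control cells and 3 in knockdown cells.

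ATP-dependent chromatin remodelers had a similar split. Of 25 SWI/SNF, CHD and INO80 genes, 19 were above 0, with a median of 0.13. At 0.5 or above were 6 (24.0%) and at −0.5 or below 1 (4.0%), against 7.64% and 4.80% of all genes. SRCAP, which deposits the histone variant H2A.Z, was at −2.04 in control cells and −0.36 on knockdown by the authors' deposited tables, a difference of 1.70. EP400, a relative of SRCAP in the TIP60 complex, was at −1.18 and 0.33 by the authors' deposited tables, GATAD2B of the NuRD complex at −1.52 and −0.09, and ARID1B of SWI/SNF at −0.91 and −0.01. The exception at the other end was BCL7A, a small SWI/SNF subunit, at −1.38 and −2.44 by the authors' deposited tables. A list of 44 histone demethylase, deacetylase and DNA methylation genes was less one-sided, with a median of 0.02. Of these, 4 (9.09%) were at 0.5 or above and 3 (6.82%) at −0.5 or below, near the shares of all genes. Among these the DNA demethylase TET3 had a difference of 0.92 and the Polycomb protein BMI1 of −0.64. The mRNAs of replication-dependent histones, with a stem-loop in place of a poly(A) tail, were strongly and about equally lost, with medians of −1.69 and −1.67 over 56 genes and a median difference of 0.06. Histone genes are near-identical copies of each other, and how reads were shared among them is not stated.

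**Figure D2:**
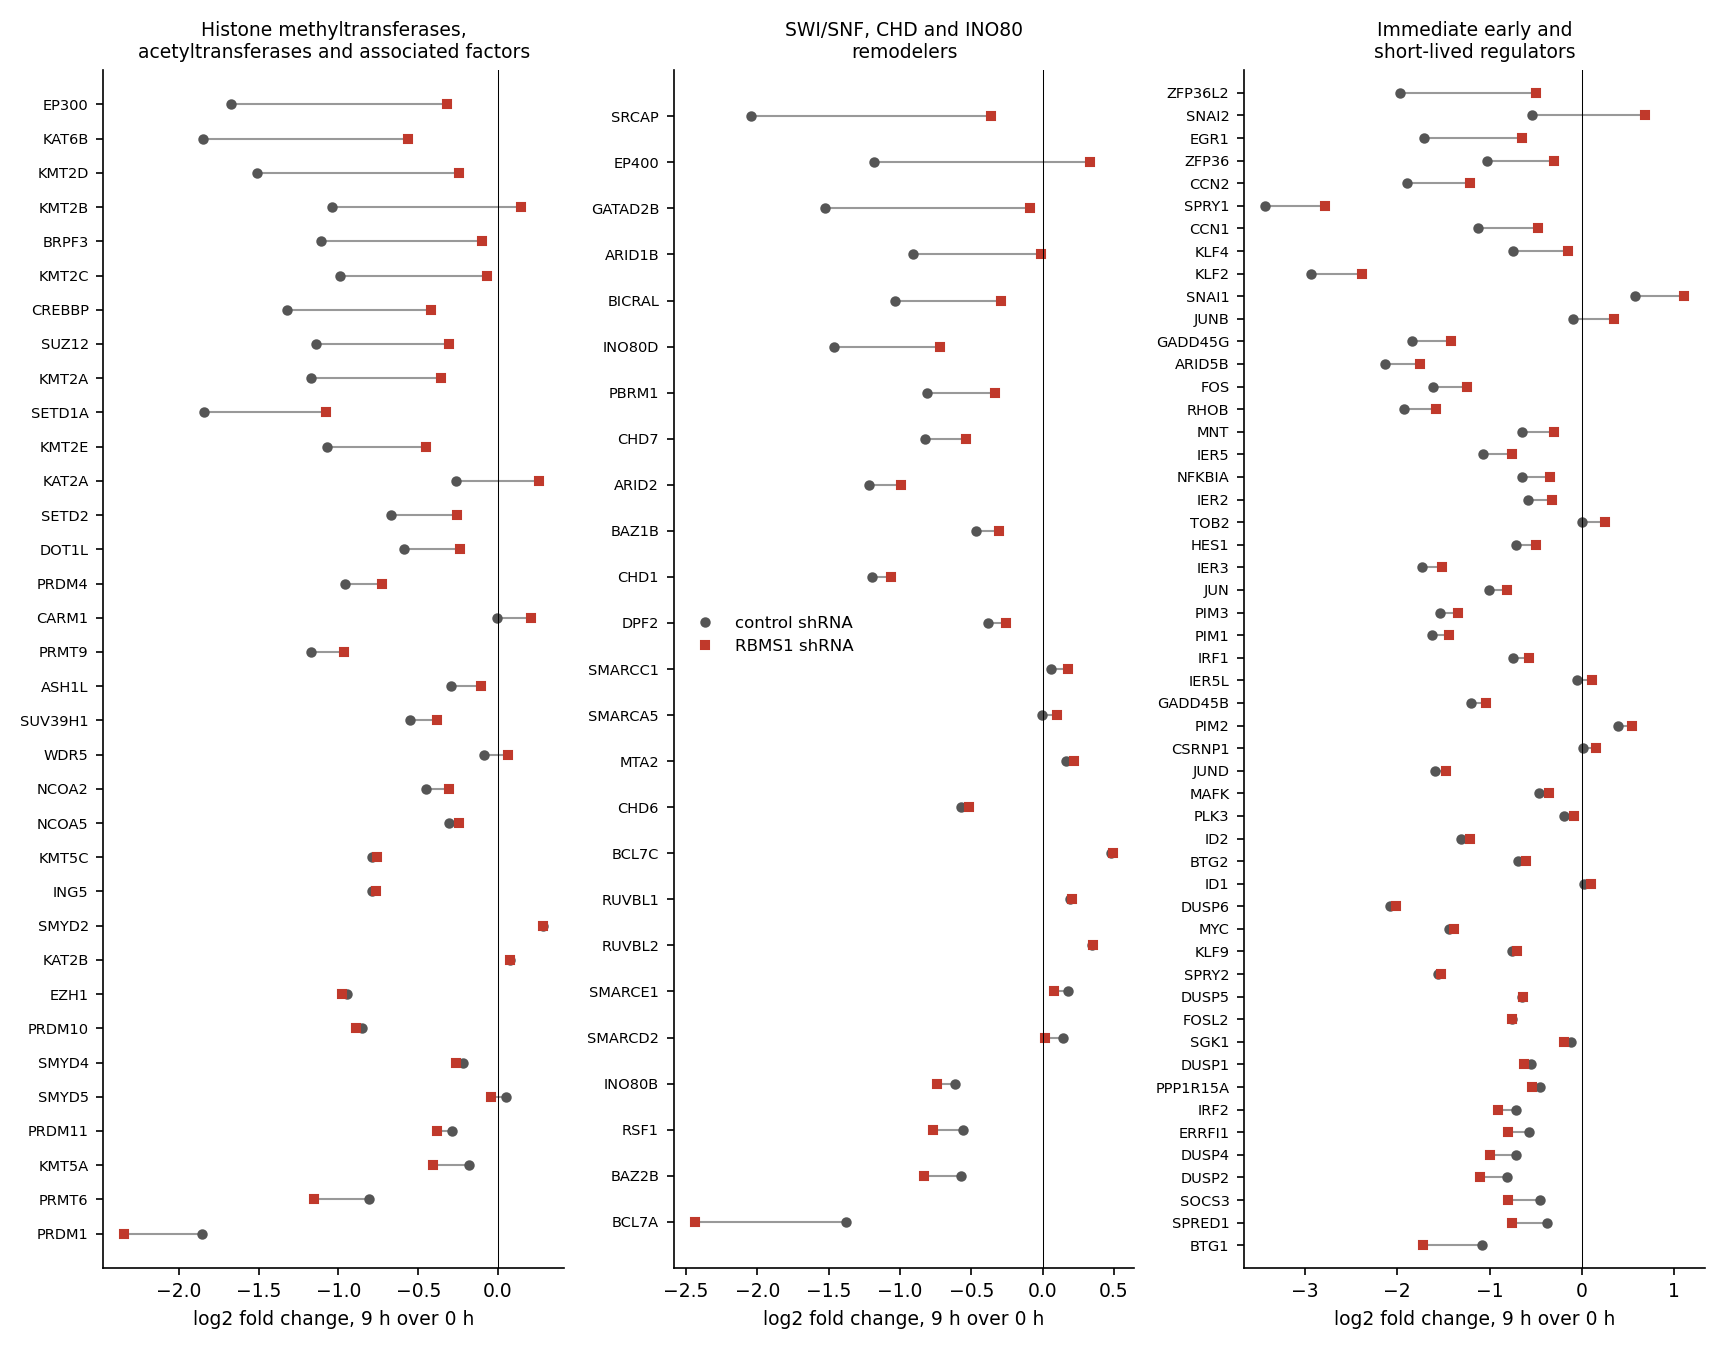
Log2 fold change of 9 h over 0 h in control cells (grey circles) and knockdown cells (red squares) for each gene of 3 functional lists, ordered by the difference. In the first panel most of the upper genes lie nearer to 0 in knockdown than in control cells, while genes in the lower part of each panel have nearly equal values or the reverse order, down to PRDM1, BCL7A and BTG1.

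Immediate early genes and other short-lived regulators, the classical unstable mRNAs, were a little better retained in knockdown cells. The median difference of 52 genes was 0.19, and 42 were above 0. At 0.5 or above were 10 (19.2%) and at −0.5 or below 1 (1.92%), against 7.64% and 4.80% of all genes. They were still lost in both populations, with medians of −0.75 and −0.73, and 23 were at −1 or below in control cells against 18 in knockdown cells. ZFP36L2 and ZFP36, which bind AU-rich elements and recruit deadenylases, were at −1.97 and −0.50 and at −1.03 and −0.30 in control and knockdown cells in the authors' deposited tables. The serum-induced factor EGR1 was at −1.71 and −0.65 there, and SNAI2, a repressor of epithelial genes, at −0.54 and 0.68. BTG1, an antiproliferative adaptor of the deadenylase complex, went the other way, at −1.09 and −1.72 by the authors' deposited tables, as did SPRED1, SOCS3 and DUSP2 with differences of −0.36, −0.33 and −0.29. MYC was nearly equal, at −1.44 and −1.38 by the authors' deposited tables. The direction of the tables was itself read from MYC, FOS and JUN being negative, so the sign of this list's levels is not a finding.

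Other transcription factor families lay near or somewhat above 0. The median difference was 0.13 over 19 ETS, E2F, MYC and MAX network factors, 15 of them above 0, with MLXIP, a glucose-sensing partner of MLX, at 1.13 and the epithelial factor ELF3 at 0.96. It was 0.11 over 63 homeobox, FOX, SOX and GATA factors, from SOX9, a factor of intestinal crypt progenitors, at 0.70 down to PAX8 at −1.54, and 0.11 over 17 nuclear receptors and circadian factors, with NR1D1, the haem-binding clock repressor, at 1.14. The 226 zinc finger genes named ZNF were at −0.03. Of these, 24 (10.6%) were at 0.5 or above and 22 (9.73%) at −0.5 or below, about even counts in both directions. Both shares were above those of all genes, 7.64% and 4.80%. The ZNF mRNAs were labile, however, with a median log2 fold change of −0.63 (control) and −0.62 (knockdown). Of all genes in the lowest quintile by the mean of both tables, 12.2% were at 0.5 or above and 8.85% at −0.5 or below. Whether the ZNF genes differ from other mRNAs as labile as they are was not tested. For the machinery itself, 9 of the 10 measured RNA polymerase II subunits had a difference between −0.14 and 0.11. The exception was POLR2A, the subunit that alpha-amanitin binds, at −0.63 in control cells and 1.01 on knockdown by the authors' deposited tables and a difference of 1.66. Mediator and general factors had a median of 0.02 over 48 genes. The 4 highest, GTF2IRD2B at 0.77, MED12L at 0.57, MED13L at 0.55 and the kinase module subunit MED12 at 0.55, contrast with TAF4B at −0.50, TAF11 at −0.49 and MED31 at −0.41.

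Deadenylases, which shorten poly(A) tails, and their adaptors had the highest median of the RNA-binding and decay lists, 0.21 over 14 genes, 11 of them above 0. The highest of this list was PABPC1, which is the cytoplasmic poly(A)-binding protein and not a deadenylase. In the authors' deposited tables it was at −0.70 in control cells and 0.50 on knockdown. CNOT6, one of the CCR4-NOT nucleases, was at −0.81 and −0.03, and CNOT3, another CCR4-NOT subunit, at −0.66 and 0.02 by the authors' deposited tables. Of 14 proteins that bind AU-rich or U-rich elements, 4 (28.6%) were at 0.5 or above and 1 (7.14%) at −0.5 or below. The shares of all genes were 7.64% and 4.80%. The poly(C)-binding protein PCBP1 was at 0.74, KHSRP at 0.54 and MEX3D at −0.55. The median of this list was 0.13. It was 0.12 over 16 decapping and LSM genes and fell to 0.08 when values past 4 in size were left out. RNA exosome genes (0.03 over 12), nonsense-mediated decay factors (0.04 over 13) and cleavage and polyadenylation factors (0.00 over 15) were close to 0, with SMG1, the kinase of nonsense-mediated decay, at 0.71 and the polyadenylation scaffold SYMPK at 0.90 at their upper ends. Spliceosome core genes had a median of −0.07 over 45 and of 0.00 with all genes, yet SF3B4 at 1.41, XAB2 at 0.86 and PRPF8 at 0.69 were far above it and PPIL4 at −0.88 far below. The nuclear speckle protein SRRM2 was at −1.47 in control cells and 0.04 on knockdown by the authors' deposited tables. RBMS2, the paralog of RBMS1, was at −0.19 and 0.19 there, a difference of 0.39.

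Most lists of stable mRNAs of translation and energy metabolism hardly differed as groups. Cytosolic ribosomal proteins were at 0.42 in control cells and 0.38 on knockdown, a median difference of −0.04 over 49 genes, although RPL21 at −0.92, RPL19 at −0.79 and RPL36A at 0.88 stood apart. Ribosomal protein genes have many processed copies in the genome, and how such reads were assigned is not stated. The 23 aminoacyl-tRNA synthetases ran from −0.21 to 0.17, and the 21 measured subunits of respiratory complex I from −0.27 to 0.32. Mitochondrial carriers of the SLC25 family stood higher, with a median difference of 0.14 over 17 genes, 11 of them above 0. With all genes their median was 0.07. Mitochondrial ribosomal proteins had the lowest median of the 82 lists, −0.08 over 51 genes, with 14 above 0 and quartiles of −0.12 and 0.00. These mRNAs are short, and after centring within quintiles of coding length and GC content their median was −0.03, above that of G protein-coupled receptor and RGS genes at −0.06. Ribosome biogenesis factors (−0.04, 23 of 65 above 0) and heat shock proteins and cochaperones (−0.06, 18 of 54 above 0) lay on the same side. Exceptions among these persistent mRNAs were SDHC, a membrane anchor of succinate dehydrogenase, at −0.60 in control cells and 0.41 on knockdown by the authors' deposited tables, the pentose phosphate enzyme RPIA at −0.35 and 0.67, and the ribosome biogenesis factor RRP15 at 0.24 and −0.75. Of metabolic groups, sterol and fatty acid synthesis had a median of 0.00 over 23 genes. The lipogenic enzyme FASN was at 0.61 there and mevalonate kinase, MVK, at 0.91.

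Large ubiquitin ligases and nuclear pore proteins were among the better retained groups. HECT ligases and related genes had a median difference of 0.18 over 17 genes, 13 of them above 0, with HUWE1 at 0.81, UBR4 at 0.79 and HECTD4 at 0.65. In the authors' deposited tables HUWE1 was at −0.52 in control cells and 0.27 on knockdown and UBR4 at −0.63 and 0.14. Nuclear pore and importin genes had a median of 0.12, and 27 of 34 were above 0. At 0.5 or above were 4 (11.8%) and at −0.5 or below 0, against 7.64% and 4.80% of all genes. POM121C and POM121, which anchor the pore in the membrane and are near-identical copies, were at 1.05 and 0.89, and NUP214 and NUP188 at 0.75 and 0.57. Proteasome genes, in contrast, were tightly placed around −0.03, with all 26 between −0.20 and 0.58, and RNF and TRIM ligases had a median of 0.02 over 65 genes. SNARE, coat and tethering genes of vesicle trafficking differed little as a group, at −0.02 over 72 genes, with the synaptobrevin VAMP2 at 1.17. Lysosomal genes had a median of −0.04 over 50, with TFEB, the master regulator of lysosome genes, at −1.84 in control cells and −0.55 on knockdown by the authors' deposited tables, and the protease TPP1 at −0.91 and 0.20. The highest of the list was SMPD1, at 0.49 in control cells and 4.38 on knockdown, a difference of 3.91. At the other end were ATP6V0A4, given above, at a difference of −3.44 and the cholesterol carrier NPC2, at 0.39 in control cells and −0.26 on knockdown by the authors' deposited tables.

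Genes of the epithelial state were slightly to the better retained side. Keratins and other epithelial genes had a median difference of 0.21, with 16 of 20 above 0, KRT10 at 0.98, ELF3 at 0.96 and the adhesion protein CDH1 at 0.45, and KRT81 at −0.61 and KRT15 at −0.36 on the other side. All 7 colorectal markers among the measured genes were above 0, from 0.07 for CDX2, EPCAM and ASCL2 to 0.42 for AXIN2 and the values of CDH1 and ELF3 given above. Integrin and matrix genes had a median of 0.11 over 56, and the basement membrane proteoglycan HSPG2 was at 1.04. Mesenchymal and motility genes were mixed, at 0.08 over 24. At 0.5 or above were 5 (20.8%) and at −0.5 or below 3 (12.5%), against 7.64% and 4.80% of all genes. SNAI2 and the YAP targets CCN2 and CCN1, at 1.24, 0.70 and 0.67, were at the top, and the caveolar protein CAVIN1, AKAP12 and the actin-binding TAGLN, at −0.99, −0.91 and −0.75, at the bottom.

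Signalling pathways had members at both ends. Receptor tyrosine kinases and ERBB ligands had a median difference of 0.14 over 21 genes, 14 of them above 0. Wnt pathway and intestinal stem cell genes had a median of 0.10 over 46, from BCL9L, a coactivator of beta-catenin, at 1.42 and WNT9A at 1.04 to LGR6 at −1.47, CCND1 at −0.95 and DKK3 at −0.85. In the authors' deposited tables CCND1, the G1 cyclin, was at 0.03 in control cells and −0.94 on knockdown, and its partner CDK4 at 0.36 and −0.28. TGF-beta, BMP and SMAD genes had a median of 0.09 over 23, which turned to −0.03 over 43 when all genes were used with values averaged over accessions. They included the SMAD repressor SKI at 1.37, TGFB1 at 0.83, the co-receptor TGFBR3 at −0.94 and ACVR2B at −0.72. MAP kinase genes (0.02 over 46), PI3K, AKT and MTOR genes (0.03 over 45), protein kinase A and phosphodiesterase genes (0.04 over 18, −0.07 with all genes), interferon genes (0.01 over 51) and cytokine and NF-kappaB genes (−0.04 over 52) had medians near 0. The cytokine and NF-kappaB list nevertheless had 8 genes (15.4%) at −0.5 or below against 4.80% of all genes, the highest such share of the 82 lists, and 6 at 0.5 or above. Its lower end held TNFSF13 at −3.95, the decoy receptor TNFRSF6B at −1.96, IL19 at −0.82 and the interleukin 17 receptor IL17RA at −0.77. At its upper end were IL18BP at 4.48, from 1.69 in control cells and 6.15 on knockdown, and REL, an NF-kappaB subunit, at 1.17. Of the 18 protein kinase A genes, 2 (11.1%) were at 0.5 or above and 2 (11.1%) at −0.5 or below. Its catalytic subunit PRKACA was at −0.76 in control cells and 0.69 on knockdown by the authors' deposited tables, while the phosphodiesterase PDE4B, which breaks down cAMP, was at −3.00 and −4.26. The highest of this list was ADCY7, at −4.19 in control cells and 0.24 on knockdown, a difference of 4.45. The PI3K list had 3 genes (6.67%) at 0.5 or above and 3 (6.67%) at −0.5 or below, near the 7.64% and 4.80% of all genes. Among them were the catalytic subunit PIK3CB at −1.25 and −0.12 by the authors' deposited tables and PRR5, a subunit of MTOR complex 2, at −0.76 and −2.14. Most cell cycle lists were flat, with 0.01 over 46 mitosis genes, 0.02 over 33 replication genes and 0.00 over 62 repair genes. Within them TOP1, the DNA topoisomerase, was at 1.27 and the mismatch repair gene PMS2 at −1.20. Cyclins, CDKs and CDK inhibitors had a median of 0.05 over 29 genes, 19 of them above 0. Among them 5 (17.2%) were at 0.5 or above and 2 (6.9%) at −0.5 or below, against 7.64% and 4.80% of all genes.

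Over all 82 lists, the medians ran from −0.08 to 0.21, and 15 were at 0.1 or above, 0 at −0.1 or below and 67 in between. When all genes were used, with values averaged over accessions, 6 of these 15 lists were at 0.1 or above. Immediate early genes were then at 0.17, HECT ligases at 0.19, histone methyltransferases and acetyltransferases at 0.16 and remodelers at 0.14. Deadenylases were at 0.12, nuclear pore genes at 0.08, keratins and epithelial genes at 0.07, ETS, E2F, MYC and MAX factors at 0.07, proteins of AU-rich elements at 0.05, decapping genes at 0.04 and homeobox, FOX, SOX and GATA factors at 0.00. Some lists share genes, such as ELF3 in both the ETS and the epithelial list, so they are not separate groups. The lists were chosen with earlier results of these data known, so their medians are a description.

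**Figure D3:**
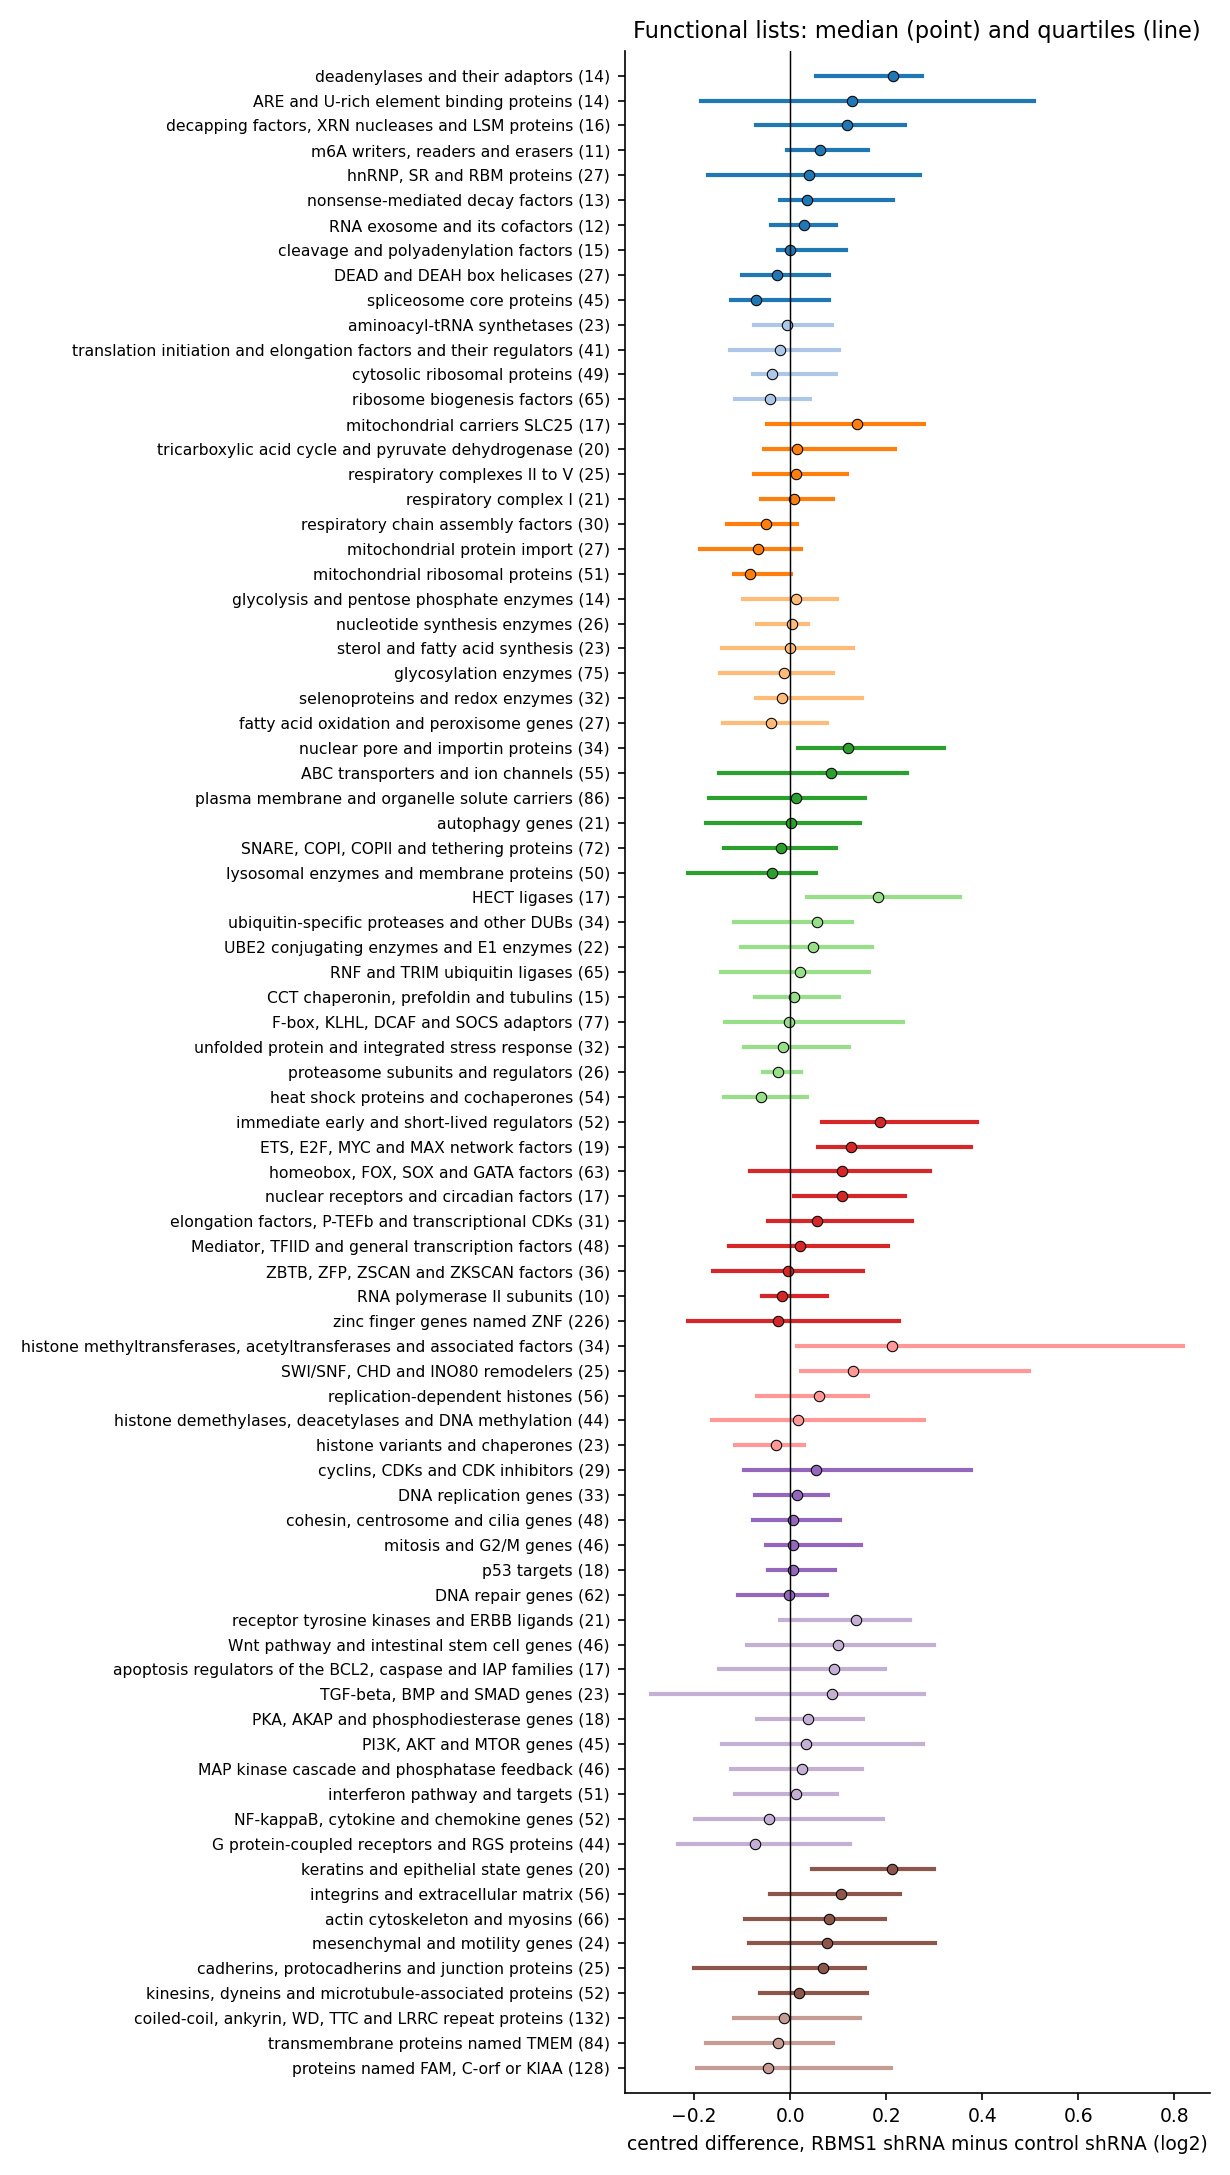
Median (point) and quartiles (line) of the centred difference (x axis, log2, knockdown minus control) for 81 of the functional lists with at least 10 measured genes, the number of genes in parentheses, coloured by role. The quartile line of histone methyltransferases and acetyltransferases reaches farthest to the right, and most lists of translation and mitochondrial proteins lie close to 0.

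The chromatin regulators, HECT ligases and nuclear pore proteins named above have long coding sequences, and coding length went with the difference across all genes. With genes split into 5 equal classes (quintiles) of coding length by GENCODE release 29 models (6243 genes), the median centred difference was −0.04, −0.03, −0.02, 0.01 and 0.09 from the shortest to the longest quintile. In the longest quintile, of 2427 nt and more, 157 of 1248 genes (12.6%) were at 0.5 or above and 44 (3.53%) at −0.5 or below, whereas in the shortest the shares were 5.92% and 5.68%. Control cells lost long mRNAs more than short ones, from a median of 0.14 in the shortest to −0.30 in the longest quintile. In knockdown cells the same medians were 0.11 and −0.18, a flatter slope. Labile mRNAs were also counted by length. Of 129 long mRNAs at −1 or below in control cells, 45 (34.9%) were also at −1 or below in knockdown cells, while in the shorter quintiles this share lay between 61.8% and 77.6%. Counted from the knockdown side, 45 of 77 long mRNAs at −1 or below (58.4%) were also there in control cells, against 58.3% to 75.5% in the shorter quintiles, so from this side the longest quintile did not stand apart. Each share selects genes on 1 of the values that make up the difference. Of the full switches from −1 or below to 0 or above, 10 of 26 were in the longest quintile, and of the opposite switches 3 of 11. That quintile holds 1248 of the 6243 genes.

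Coding GC content added to this. The median difference was −0.03 in the quintile with the lowest coding GC content and 0.05 in the richest. Among long mRNAs, the share at 0.5 or above was 5.02% in the GC-poorest quintile (319 genes) and 19.9% in the GC-richest (201 genes), with medians of 0.02 and 0.14. Exon number followed coding length, with a median of 0.07 for genes with 17 or more exons and −0.02 for those with up to 4. The length of the 3′UTR did not go with the difference, with medians between −0.01 and 0.01 in its quintiles. Genes of the chromatin lists made up 59 of the 1248 long mRNAs, and 21 of them (35.6%) were at 0.5 or above. The other 1189 long mRNAs had 136 (11.4%) at 0.5 or above, and the 605 that belong to no list had 82 (13.6%). Among histone methyltransferases and acetyltransferases, the 20 long mRNAs had a median difference of 0.59 and the others of 0.04. After subtraction of the median of genes in the same quintile of coding length and of coding GC content, a comparison chosen after seeing the data, the list's median was 0.20, that of remodelers 0.10, of HECT ligases 0.11, of nuclear pore genes 0.09 and of immediate early genes, which are short, 0.18. The longest quintile runs from 2427 to 22383 nt, so its genes still differ widely in length. Neither this centring nor the shares within that quintile remove such differences, and their part was not tested. RNA quality and fragment lengths are not in the tables, and their part in the relation to length was not tested. Medians differed little between chromosomes, from −0.04 for chromosome 18 to 0.06 for chromosome 21. The share at 0.5 or above varied more, from 4.72% of 233 genes on chromosome 10 to 11.1% of 190 on chromosome 15.

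**Figure D4:**
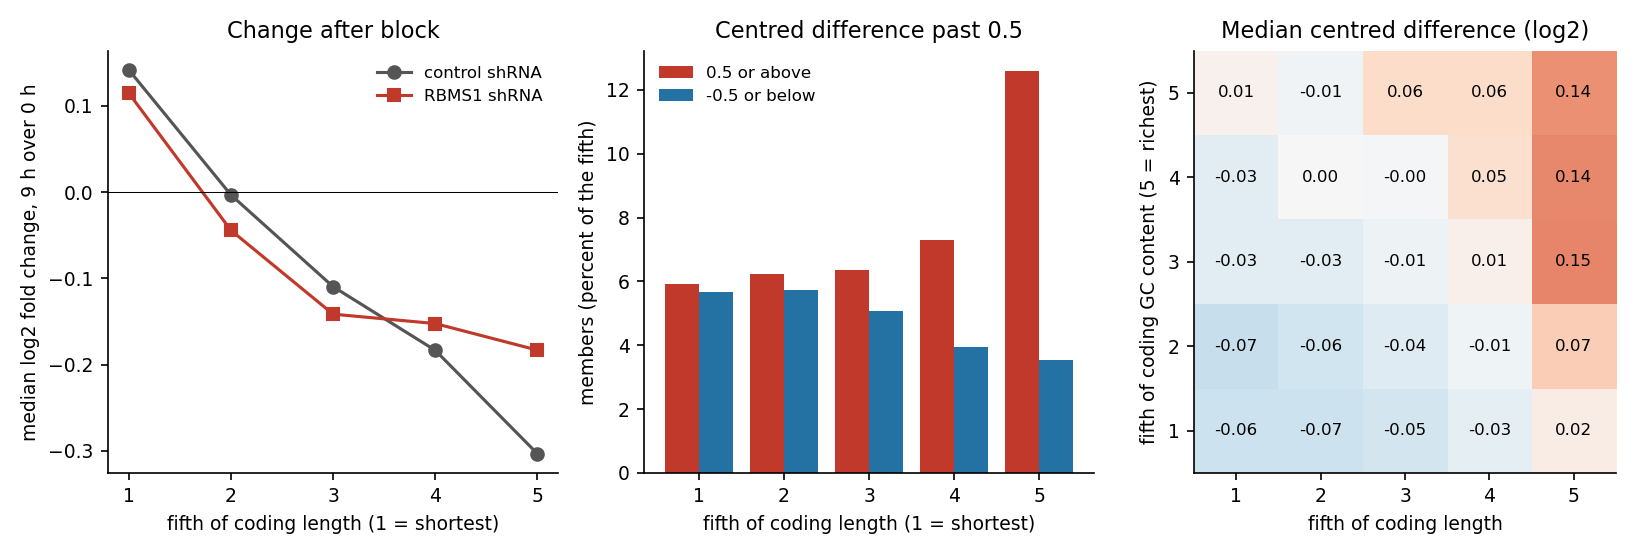
Left, median log2 fold change of 9 h over 0 h by quintile of coding length in control and knockdown cells; middle, percent of each quintile with a centred difference of 0.5 or above (red) or −0.5 or below (blue); right, median centred difference by quintiles of coding length and coding GC content. The curves part in the longest quintile, at −0.30 in control cells and −0.18 on knockdown, where 12.6% of genes are at 0.5 or above.

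AKAP12, a scaffold that holds protein kinase A and protein kinase C at the membrane, is remembered as a reported RBMS1 target from work on these samples, so its direction is not independent evidence. In the authors' deposited tables it was at 0.65 in control cells and −0.27 on knockdown, a difference of −0.91 and so opposite to most long mRNAs. Its 3′UTR (2843 nt in the GENCODE release 29 model, chromosome 6, GRCh38, plus strand) holds 15 copies of ATATA, a word that RBMS proteins are known to bind, in 8 separate places. That is 5.28 per 1000 nt against a median of 0.80 for all 3′UTRs, and 5.69% of 3′UTRs have as many or more. The following 26-base windows show 4 of these places, with every copy of ATATA in capitals; the longest has overlapping copies in a run.
AKAP12 chr6:151357380-151357405: actggcctggcATATAgctttccaga
AKAP12 chr6:151357576-151357601: atagcagtgtATATATAgtcttgttt
AKAP12 chr6:151357628-151357653: tattctcaaATATATATAatagctac
AKAP12 chr6:151357689-151357714: acctctgATATATATATATAattttt
The 352 genes with at least as many copies per 1000 nt as AKAP12 had a median difference of −0.04.

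Copies of ATATA in the 3′UTR went with slightly lower differences, and so did other AU-rich words. Words were counted on the mRNA strand in the longest 3′UTR of each gene (6191 genes), overlapping copies included, within 3 equal classes (tertiles) of 3′UTR length, and ATATA was found in 60.7% of 3′UTRs. In the middle tertile (752 to 2150 nt) the median difference was 0.03 with 0 copies, 0.00 with 1, −0.02 with 2 and −0.04 with 3 or more, a drop of −0.07 in all. In the longest tertile it went from 0.05 with 0 copies to 0.00 with 3 or more. The 9 other orders of 3 A and 2 T gave drops of −0.09 to −0.06 in the middle tertile, 7 of them at least as large as that of ATATA. The core of AU-rich elements, ATTTA, was in 72.5% of 3′UTRs and gave −0.08. Runs of 5 T were in 80.7% and gave −0.04. The Pumilio site, searched as TGTANATA, was in 29.2% and showed no steady fall, with −0.01 at 0 and at 1 copies, −0.04 at 2 and 0.04 at 3 or more. The A+T content of the 3′UTR itself went the same way, from a median of 0.04 in the quintile poorest in A+T to −0.03 in the richest. With the shortest 3′UTR of each gene in place of the longest, the drop for ATATA was −0.02. These values describe letters in annotated 3′UTRs and not binding.

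**Figure D5:**
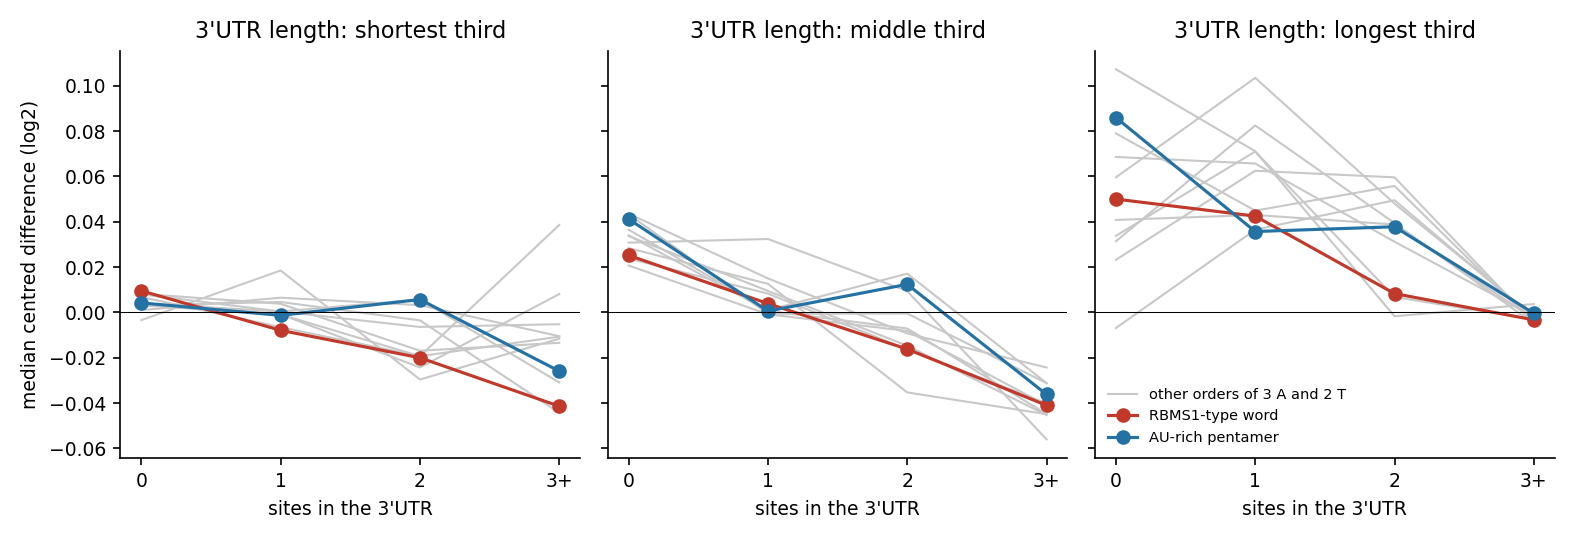
Median centred difference (y axis, log2) by the number of copies of a word in the 3′UTR (x axis), in tertiles of 3′UTR length; red, ATATA; blue, ATTTA; grey, the 9 other orders of 3 A and 2 T. In the middle tertile, ATATA goes from 0.03 to −0.04, within the band of the grey lines at 3 or more copies.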

How the data were processed

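The authors deposited 2 tables, 1 per shRNA, holding RefSeq accessions and their logFC, per the file headers; the unit was taken as log2 because Cuffdiff is named in the submitters' processing notes, along with STAR 2.5, Cufflinks and hg38. The headers state no log base or direction; 9 h over 0 h was inferred because MYC, FOS and JUN are below 0. How values were normalised and how accessions were chosen is not stated. Libraries are combined in each value, so depth and replicate error are unknown.

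Of 22468 accessions, 19334 were in both tables. Symbols came from the RefSeq gene table (GRCh38.p14) for 22132 and from GENCODE release 29 for 212, and 124 had none. Coding models were found for 6243 genes and 3′UTRs of at least 20 nt for 6191. Analyses used Python 3 with pandas and scipy. Only the recovery of a large planted shift with little noise and the cutting of coding regions were checked on made-up input. Lists, quintiles and word counts were not checked in this way. Counts and medians were computed with no test. The members and lists were chosen with earlier results of these data known, and symbol patterns of some lists were corrected for names outside the family after values were seen. Named genes were AKAP12, POLR2A, RBMS2 and MYC, the 12 largest and 12 smallest differences and up to 10 switches each way within 4 in size, up to 4 from each end of a list, and those nearest to a size of 1; the histone-writer genes CREBBP, KMT2A, KMT2C, SETD1A, SUZ12, EZH1, KAT2B and KMT5C were added after their values were seen. Alternatives took all genes with NM accessions, other centrings, limits on size, other residuals and other 3′UTR models. A few results, among them 1 list, are not reported here.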

Additional observations from a re-analysis of the deposited data

How the results depend on the processing

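No paired analysis was possible because each deposited value combines the libraries of a group, so that replicate numbers carry no values of their own; for the same reason no replicate could be left out. The counts past 0.5 and 1 stayed within 1.5 times the main count with no centring, with centring on ribosomal protein mRNAs or on all accessions, without values past 4 in size, as residuals from the major axis and as differences of rank normal scores. With all 11301 genes averaged over their NM accessions, 1340 genes (11.9%) were at 0.5 or above, 1139 (10.1%) at −0.5 or below, 522 (4.62%) at 1 or above and 441 (3.90%) at −1 or below, a set with more genes and several accessions per gene. Without values past 2 in size, 46 genes were at −1 or below; genes with such values had been left out. In the longest quintile of coding length the median was 0.09 without values past 2 and 0.08 as a residual, both chosen after seeing the data. Of the 15 lists at 0.1 or above, all 15 were there with ribosomal protein centring, 14 without values past 4, 14 as residuals, 13 without values past 2, 12 as means without the outer 20% on each side, 7 after centring within length and GC quintiles and 6 with all genes; apart from the fewer or added genes where the setting makes them, the cause was not tested. Under all of these settings no list of at least 5 genes with a main median past 0.1 in size changed sign. Some lists nearer to 0 did. For example, the TGF-beta list went from 0.09 to −0.03 with all genes. ABC transporters and ion channels went from 0.09 to −0.03 after centring within length and GC quintiles. Depth is unknown, so genes with few reads cannot be told from the rest.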
